A study of Mus musculus with 6 samples.

Results

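The proteasome is the protease complex that degrades ubiquitin-tagged proteins, and its genes were examined in hippocampal RNA-Seq of Phf21bΔ4/Δ4 and Phf21b+/+ mice. Genes were chosen by symbol, as those named Psma to Psmg followed by a number, and 47 of the 14477 listed genes met this rule. They cover the alpha and beta rings of the 20S core, the inducible catalytic subunits, the ATPase and non-ATPase subunits of the 19S cap, the activators and the inhibitor of the core, and the assembly chaperones. One of them, *Psmc3ip*, matches by its symbol alone. It encodes a cofactor of meiotic recombination. Counts over the 47 genes include it, and its values are given apart from those of the 46 proteasome genes. *Psma8*, *Psmb11*, *Psme2b*, and 4 annotated pseudogenes also match the rule in the annotation but are not among the listed genes.

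Phf21bΔ4/Δ4 mice carry a whole-body CRISPR/Cas9 deletion in exon 4 of *Phf21b*, which encodes a PHD finger protein that reads histone marks, and the line is a knockdown and not a null. The 3 Phf21bΔ4/Δ4 mice (replicates 2, 3, and 6) and the 3 Phf21b+/+ mice (replicates 5, 7, and 8) were untreated C57BL/6J animals. According to the study's methods, its experiments used young adult littermates of both sexes; the sex and age of each mouse were not used here. Total RNA from the hippocampus was depleted of ribosomal RNA before sequencing, and levels are given as CPM, read counts scaled by the authors to the size of each library.

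Depth, as reads on listed genes, ranged from 20495605 to 24881257 per mouse. At the effective library sizes behind the CPM values, 3 reads correspond to a CPM of 0.127 to 0.143. The targeted gene *Phf21b* stood at 2.15, 3.57, and 3.87 CPM in the Phf21bΔ4/Δ4 mice and at 6.50, 5.23, and 6.47 CPM in the Phf21b+/+ mice. All 3 mutant values lay below all 3 control values, and the log2 fold change (Phf21bΔ4/Δ4 minus Phf21b+/+) was -0.96 (SE 0.26, limma FDR 0.14). The libraries differed in regional and cell type markers. Of 10 medial habenula markers, 8 were lower in Phf21bΔ4/Δ4 past the threshold used below, and the summed level of the 10 was 51.9 to 171 CPM against 287 to 340 CPM. The 171 CPM, in Phf21bΔ4/Δ4 replicate 3, came mostly from *Nr4a2* (137 CPM), the only marker of the 10 with a log2 fold change above 0. Choroid plexus markers summed to 15526 and 963 CPM in Phf21b+/+ replicates 7 and 8 and to at most 81.4 CPM in the other mice. Dentate granule cell markers summed to 147 and 150 CPM in Phf21bΔ4/Δ4 replicates 2 and 3, to 499 CPM in replicate 6, and to 527 to 618 CPM in Phf21b+/+. CA1 pyramidal neuron markers summed to 729 to 950 CPM in Phf21bΔ4/Δ4 and to 263 to 322 CPM in Phf21b+/+, with 2 of the 6 markers higher past the threshold. Neuronal markers summed to 7910 to 9273 CPM in Phf21bΔ4/Δ4 and to 5869 to 7524 CPM in Phf21b+/+. Of 7 astrocyte markers, 3 had log2 fold changes below 0 and 4 above. *Aqp4* (-0.68) was lower past the threshold, and *Gfap* (-0.70) was lower without overlap. All 6 endothelial markers had log2 fold changes above 0. The genotypes did not overlap in 3 of these 6 (50%), against 15.0% of all genes higher without overlap. In bulk tissue, fewer cells of a type and less RNA per cell cannot be told apart, and the part of these differences in the values below was not tested.

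As background, the 20S core is a barrel of stacked rings in which an alpha ring gates the entrance and a beta ring carries the proteolytic sites. The 19S cap docks on the alpha ring, recognizes ubiquitin chains, removes them, and unfolds the substrate with its ring of ATPases. Interferon induces alternative catalytic beta subunits that replace the constitutive ones and form the immunoproteasome, which favors peptides for MHC class I presentation. In neurons, proteasome activity sets the turnover of synaptic proteins. When proteasome activity falls short, the transcription factor NRF1 (encoded by *Nfe2l1*) raises transcription of proteasome genes through antioxidant response elements in their promoters.

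Promoter stretches are shown for the 5 proteasome genes whose 250 bases before the RefSeq start contained the antioxidant response element TGACNNNGC on either strand. This is the type of element named above for NRF1, and binding of NRF1 to these sites was not tested. The stretches lie in GRCm38.p6 at chr14:54617999-54618078 on the minus strand for *Psmb5* (the chymotrypsin-like catalytic subunit), chr11:70525277-70525356 on the plus strand for *Psmb6* (the caspase-like catalytic subunit), chr14:45329574-45329653 on the plus strand for *Psmc6* (a 19S ATPase), chr11:107479278-107479357 on the plus strand for *Psmd12* (a 19S lid subunit), and chr5:123228110-123228189 on the plus strand for *Psmd9* (a 19S chaperone). Capitals mark the element, and sequences run 5′ to 3′ in the direction of transcription.
Psmb5: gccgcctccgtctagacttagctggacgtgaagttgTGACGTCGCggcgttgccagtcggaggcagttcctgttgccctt
Psmb6: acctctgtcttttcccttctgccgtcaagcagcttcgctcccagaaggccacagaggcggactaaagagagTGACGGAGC
Psmc6: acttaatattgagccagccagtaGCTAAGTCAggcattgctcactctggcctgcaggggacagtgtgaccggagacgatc
Psmd12: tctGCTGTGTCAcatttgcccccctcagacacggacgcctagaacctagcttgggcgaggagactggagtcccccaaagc
Psmd9: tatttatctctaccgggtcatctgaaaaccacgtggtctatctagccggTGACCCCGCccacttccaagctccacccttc

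RefSeq promoter windows were available for 40 of the 47 genes (43 windows, since some genes have several starts). The element was present in 5 of the 43 windows (11.6%), in 11.5% of the 14533 promoter windows of listed genes, and in 10.2% of the 32851 promoter windows of all genes. In *Psmb5* it lay from -47 to -39 and in *Psmb6* from -9 to -1 relative to the RefSeq start. The cAMP response element TGACGTCA, the palindrome bound by CREB, was in 0 of the 43 windows, in 2.50% of those of listed genes, and in 1.55% of all windows. Only this full palindrome was searched. Shorter or inexact forms were not counted, so the 0 does not show that CREB sites are absent. The CCAAT box was in 14 of the 43 windows (32.6%), in 34.8% of those of listed genes, and in 33.8% of all windows. These shares are a description of the letters in these windows.

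In the Phf21b+/+ hippocampus, levels per kb of the longest coding transcript spanned from *Psmb6*, at 144 ± 1.96 CPM per kb (SD, n = 3), to the inducible subunit *Psmb9*, at 0.899 ± 0.162 CPM per kb. The subunits of the constitutive 20S core lay within 5.54-fold of each other, from 26.0 CPM per kb for *Psma3* to 144 CPM per kb for *Psmb6*. This range and order depend on the transcript length used. The longest coding transcript of *Psma3* has 2846 bp and that of *Psmb5* has 899 bp. Without division by length, *Psma3* averaged 73.9 CPM, above *Psmb5* at 32.4 CPM. *Psmb4* (114 ± 1.57 CPM per kb), the ATPase *Psmc3* (110 ± 1.64), and *Psmb7* (106 ± 2.01), the trypsin-like catalytic subunit, followed *Psmb6* in this order, and the mice did not overlap between neighbors among these first 4 genes. Over the whole order, mice did not overlap in 23 of the 46 pairs of neighbors, so that the remaining neighbors did not differ beyond their spread. The 20S chaperones *Psmg1* to *Psmg4*, which guide ring formation and are not part of the finished complex, ranged from 5.96 to 13.1 CPM per kb. Within the 19S cap, *Psmd11*, a lid subunit known to promote assembly of cap and core, was the lowest of the non-ATPase subunits at 9.90 ± 1.33 CPM per kb, and the levels of these subunits spanned 8.20-fold.

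**Figure D1:**
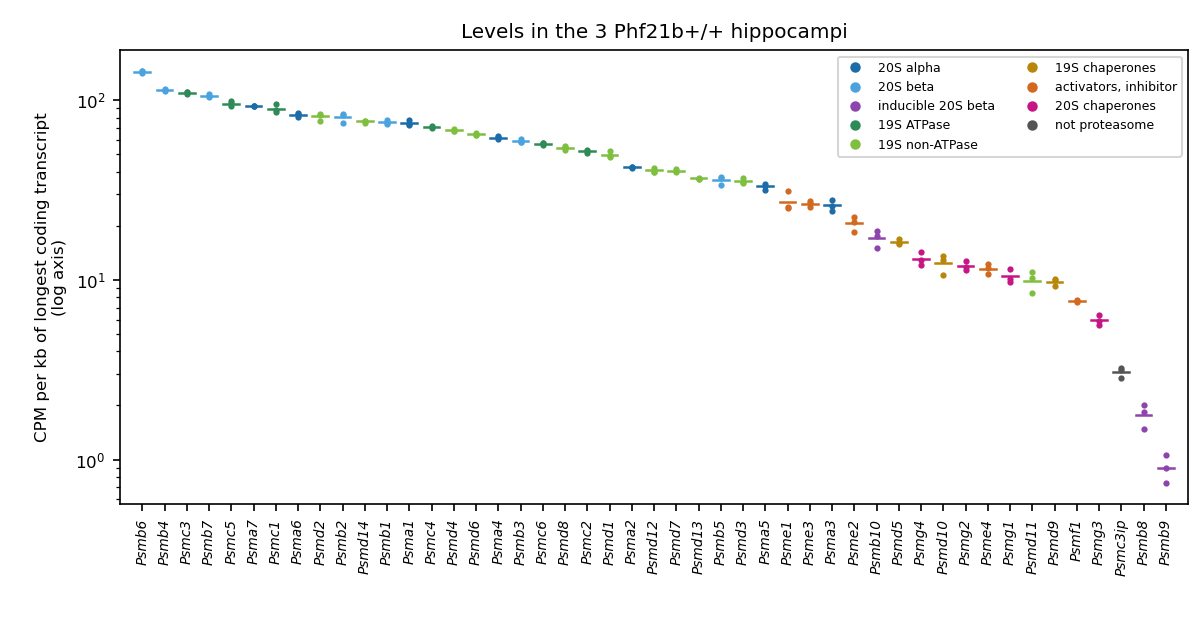
Levels of the 47 genes in the 3 Phf21b+/+ mice, as CPM per kb of the longest coding transcript on a log axis, with 1 point per mouse, a line at the mean, and colors for the role of the gene. Subunits of the core and the cap fill the upper range, with *Psmb6* highest at 144 CPM per kb, and the inducible subunits *Psmb8* and *Psmb9* are the lowest at 1.78 and 0.899 CPM per kb.

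The first comparison asked whether proteasome genes differed in level between the genotypes. None did at the threshold of the study (FDR under 0.1 and a fold change above 1.3): 0 of the 47 genes passed it with limma on the deposited log2 CPM, against 176 of the 14477 listed genes (1.22%). Limma voom on the recovered reads also called 0 of the 47. In the fit on the deposited log2 CPM, the lowest FDR among them was 0.15, for *Psmc3ip*. At an unadjusted p under 0.05, 6 of the 47 (12.8%) were lower in Phf21bΔ4/Δ4, a share near the 12% of all genes, and 2 (4.26%) were higher, against 11.6% of all genes. The 6 lower genes were *Psma7*, *Psmb6*, *Psmc6*, *Psme2*, *Psmg4*, and *Psmc3ip*, and the 2 higher genes were *Psmd2* and *Psmd3*. Values of the mice did not overlap between the genotypes in 15 genes that were lower in Phf21bΔ4/Δ4 (31.9%, against 16.0% of all genes) and in 4 that were higher (8.51%, against 15.0% of all genes). Without *Psmc3ip*, 5 of 46 genes (10.9%) were lower at that p, and 14 (30.4%) were lower without overlap. The lowest FDR was then 0.17.

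Differences were small. The median log2 fold change of the 47 genes was -0.10, beside -0.019 for all genes. Of the 47 genes, 37 had a value below 0, as had 7593 of the 14477 listed genes. This median was -0.05 with each mouse centred on its median, beside 0.03 for all genes, and -0.05 with a trend with exonic length removed. Under quantile normalization it was -0.13, beside 0.019 for all genes, and without Phf21bΔ4/Δ4 replicate 3 it was -0.04. For 32 of the 47 genes (68.1%), the 95% confidence interval of limma lay wholly within a 1.3-fold change in either direction, as it did for 27.2% of all genes. Most of these genes were read deeply: 30 of the 47 had at least 1000 reads in every mouse, and reads per gene and mouse ranged from 14 to 7051. One mouse carried much of the shift, as the median of the 47 genes relative to the Phf21b+/+ mean was -0.19 in Phf21bΔ4/Δ4 replicate 3, against -0.05 and -0.03 on the log2 scale in replicates 2 and 6. Leaving out any 1 of the mice other than Phf21bΔ4/Δ4 replicate 6 left 1 to 3 genes lower and 0 or 1 higher at an unadjusted p under 0.05 (1 and 0 without Phf21bΔ4/Δ4 replicate 3). The shares of all genes in those fits were also mostly smaller, at 6.47% to 12.1% lower and 6.22% to 10.2% higher. Without Phf21bΔ4/Δ4 replicate 6, 4 of the 47 genes (*Psmb5*, *Psmc3ip*, *Psmd11*, and *Psme2*) passed the threshold, together with 19.5% of all genes.

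**Figure D2:**
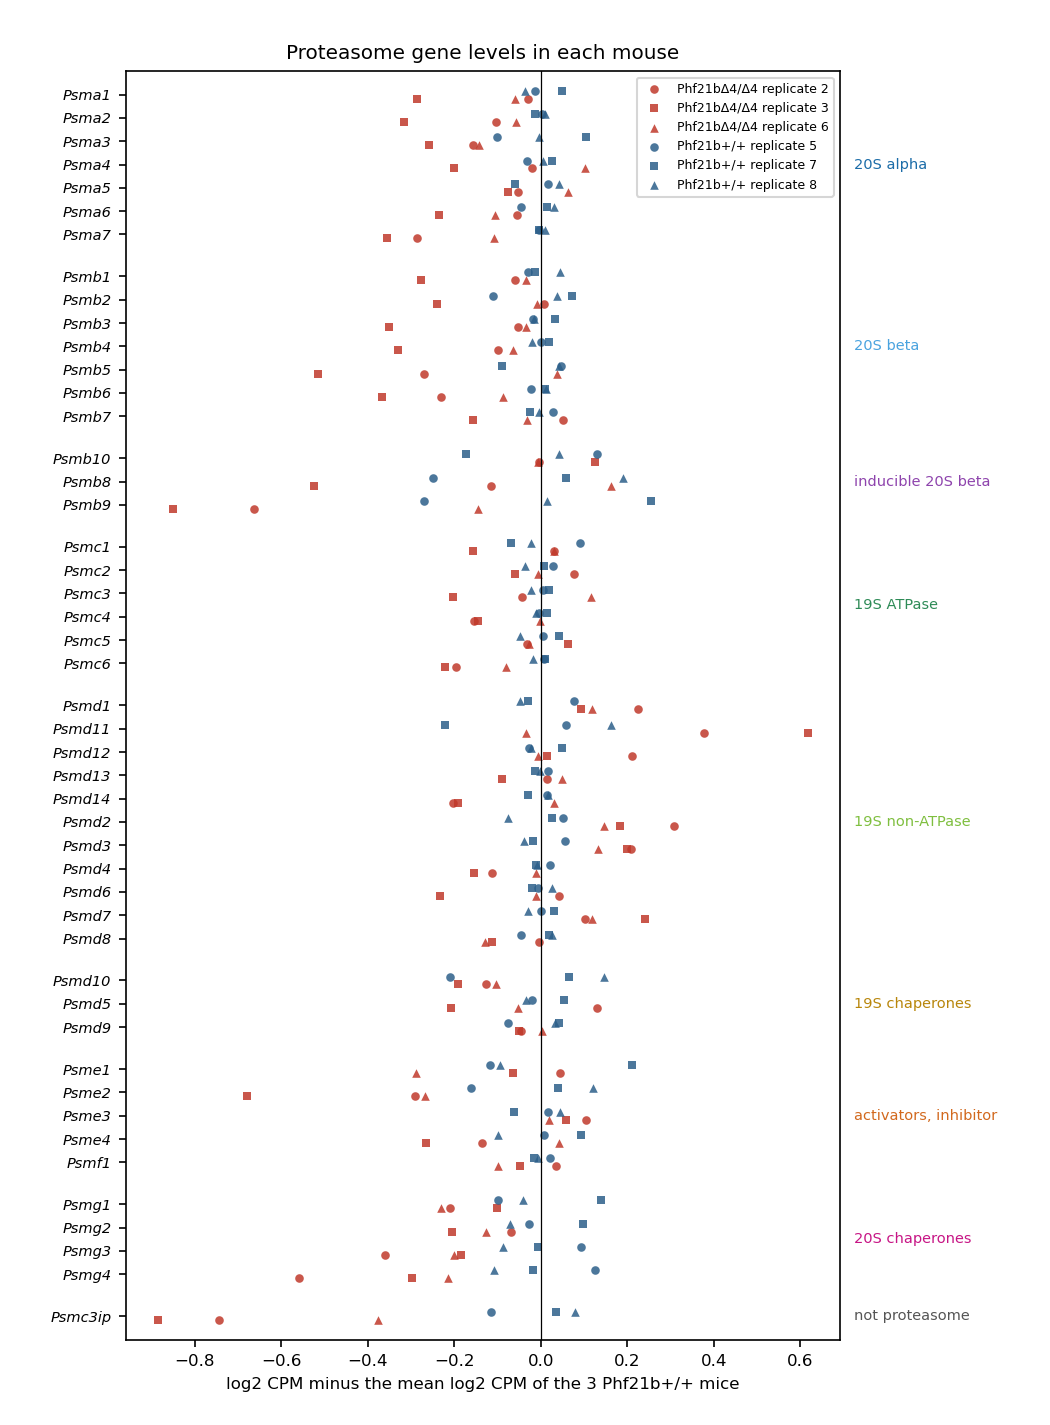
Level of each of the 47 genes in each mouse, as log2 CPM minus the mean log2 CPM of the 3 Phf21b+/+ mice, with Phf21bΔ4/Δ4 in red and Phf21b+/+ in blue and 1 marker shape per replicate. Red squares (Phf21bΔ4/Δ4 replicate 3) lie farthest left through most of the 20S core, and all 3 red markers lie right of the blue ones for *Psmd1*, *Psmd2*, *Psmd3*, and *Psmd7*.

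**Figure D3:**
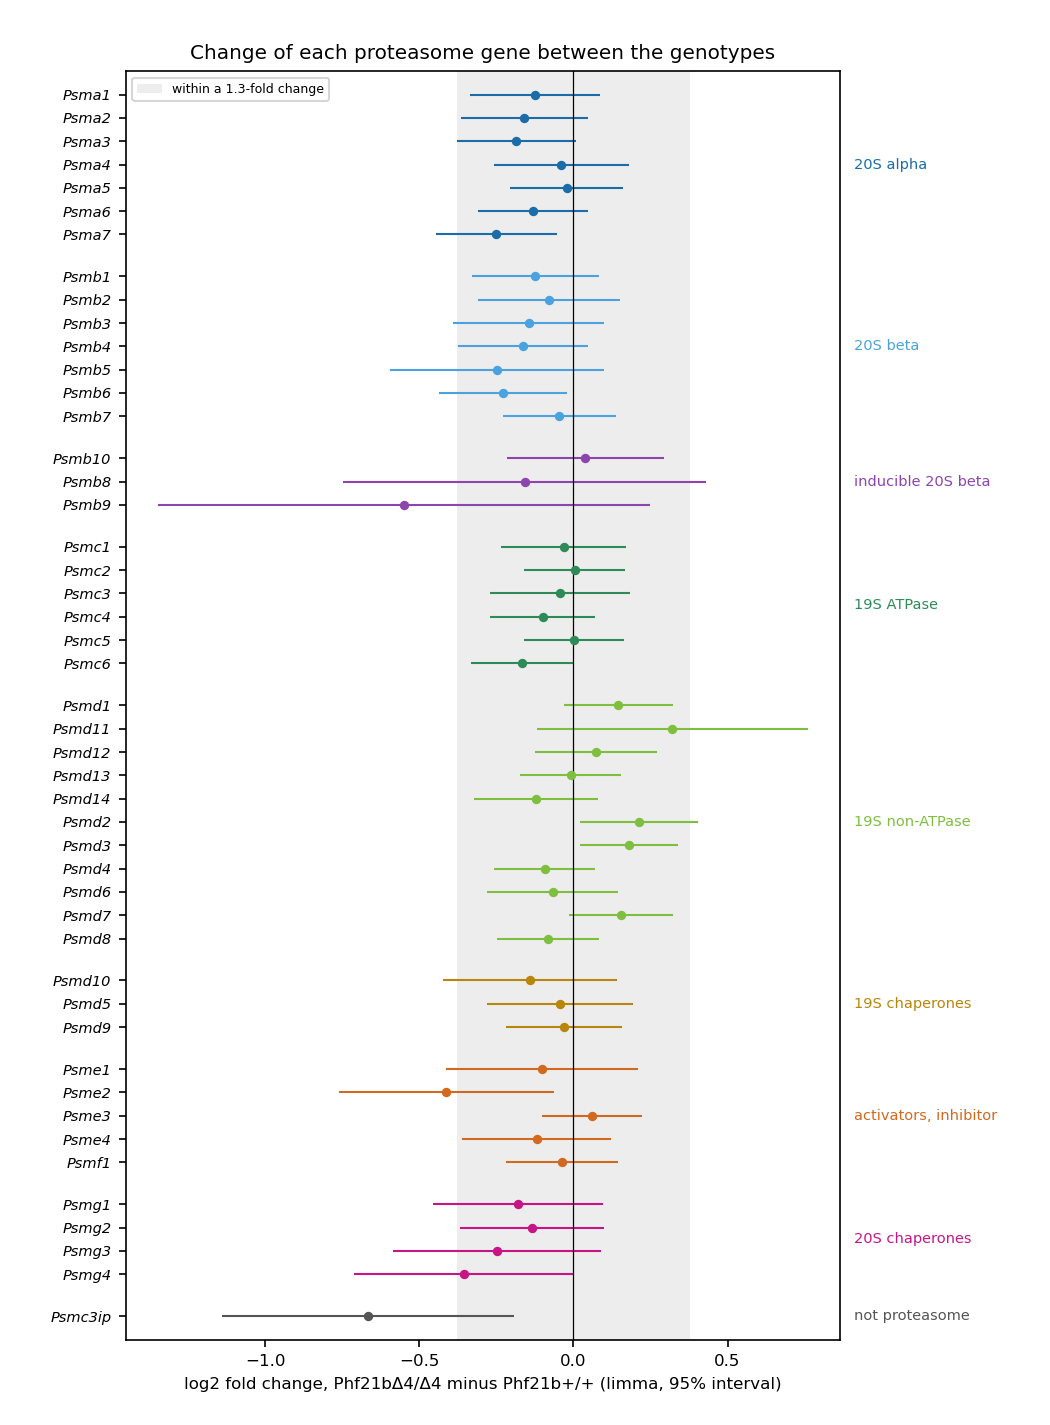
Log2 fold change (Phf21bΔ4/Δ4 minus Phf21b+/+) of each gene with its 95% confidence interval from limma (n = 3 mice per genotype), with the range of a 1.3-fold change shaded. Intervals of 32 of the 47 genes lie inside the shaded range, and the points of all 14 genes of the constitutive 20S core lie left of 0.

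In the alpha ring of the 20S core, all 7 subunits had log2 fold changes below 0, from -0.25 to -0.02, with a median of -0.13. *Psma7* (chr2:180036374-180042433 in GRCm38) stood at 87.8, 83.6, and 99.3 CPM in Phf21bΔ4/Δ4 replicates 2, 3, and 6 and at 107, 107, and 108 CPM in Phf21b+/+ replicates 5, 7, and 8. All mutant values were below the tightly grouped controls, and the level was 15.9% lower (log2 fold change -0.25, SE 0.08, limma FDR 0.17). *Psma2*, with 115, 98.9, and 118 CPM against 123, 122, and 124 CPM, was 10.4% lower without overlap (log2 fold change -0.16, SE 0.09, limma FDR 0.29). *Psma3* had 66.2, 61.7, and 66.9 CPM against 68.8, 79.3, and 73.6 CPM, and its log2 fold change was -0.19 (SE 0.08, limma FDR 0.22). *Psma6* also did not overlap (log2 fold change -0.13, SE 0.08), but its direction turned to 0.0065 when a trend with exonic length was removed. *Psma1*, *Psma4*, and *Psma5* overlapped between the genotypes.

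The constitutive beta ring showed values of the same size: all 7 subunits had log2 fold changes below 0, from -0.25 to -0.05, with a median of -0.15. *Psmb6*, whose promoter element is printed above, stood at 98.0, 89.2, and 108 CPM in Phf21bΔ4/Δ4 and at 113, 116, and 116 CPM in Phf21b+/+. No mutant value reached the lowest control, and *Psmb6* was 14.6% lower (log2 fold change -0.23, SE 0.09, limma FDR 0.19). *Psmb5* had 26.8, 22.6, and 33.2 CPM against 33.4, 30.4, and 33.3 CPM. Here Phf21bΔ4/Δ4 replicate 6 lay among the controls, and the difference had a wide interval, from -0.60 to 0.10 on the log2 scale (limma FDR 0.32). The noncatalytic subunits *Psmb1*, *Psmb3*, and *Psmb4* did not overlap, with log2 fold changes of -0.12, -0.15, and -0.16 (limma FDR 0.39, 0.40, and 0.29). Without Phf21bΔ4/Δ4 replicate 3 these values were -0.05, -0.04, and -0.08, and that of *Psma2* in the alpha ring was -0.08. *Psmb2* and *Psmb7* overlapped.

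Over both rings, 8 of the 14 core genes (57.1%) were lower without overlap, against 16.0% of all genes. At an unadjusted p under 0.05, 2 of the 14 (14.3%) were lower, a share near the 12% of all genes, and 0 passed the threshold. Their summed level was 1184, 1039, and 1220 CPM in Phf21bΔ4/Δ4 replicates 2, 3, and 6 and 1245, 1270, and 1269 CPM in Phf21b+/+ replicates 5, 7, and 8. All 3 mutant sums were below the control sums, with replicate 3 lowest by far. Intervals of 10 of the 14 lay within a 1.3-fold change, the exceptions being *Psma7*, *Psmb3*, *Psmb5*, and *Psmb6*. Without Phf21bΔ4/Δ4 replicate 3, 10 of the 14 kept a value below 0 and the median moved from -0.14 to -0.06. With each mouse centred on its median, 11 of the 14 were below 0, and after a trend with exonic length was removed, 10 were. Under quantile normalization all 14 were below 0, with a median of -0.21.

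Of the inducible catalytic subunits, *Psmb8* and *Psmb9* were rare transcripts in this tissue. *Psmb10* averaged 22.4 CPM in Phf21b+/+, near the median of 24.9 CPM over all listed genes. Per kb, *Psmb8* stood at 4.95% of *Psmb5*, *Psmb9* at 0.624% of *Psmb6*, and *Psmb10* at 16.2% of *Psmb7*, the constitutive subunits that they replace, in Phf21b+/+ mice. *Psmb8* had 2.66, 2.0, and 3.22 CPM in Phf21bΔ4/Δ4 and 2.42, 3.0, and 3.28 CPM in Phf21b+/+. *Psmb9* had 0.759, 0.667, and 1.09 CPM against 0.997, 1.44, and 1.21 CPM. *Psmb10* had 22.3, 24.4, and 22.3 CPM against 24.5, 19.8, and 23.0 CPM. In all 3 genes the genotypes overlapped, and the intervals were wide for *Psmb9* (log2 fold change -0.55, interval -1.35 to 0.25, limma FDR 0.34) and for *Psmb8* (-0.16, interval -0.75 to 0.43, limma FDR 0.70). *Psmb9* shares 212 bp of exons with *Tap1* on the opposite strand, and the strand setting of the counting is not given in the sources used here, so that reads of the pair may not be told apart.

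The ratio of each inducible subunit to its constitutive counterpart within a mouse does not depend on library scaling. The log2 ratio of *Psmb8* to *Psmb5* was -3.40 ± 0.09 in Phf21bΔ4/Δ4 and -3.49 ± 0.26 in Phf21b+/+ (SD, n = 3 each; exact two-sided permutation p = 0.8). *Psmb9* to *Psmb6* gave -6.90 ± 0.23 and -6.57 ± 0.25 (exact permutation p = 0.2), a difference of -0.32 that was -0.05 with a pseudocount of 1 added to the low CPM values, and *Psmb10* to *Psmb7* gave -2.37 ± 0.18 and -2.46 ± 0.13 (exact permutation p = 0.6). With 3 mice against 3, the smallest p this test can give is 0.1, and none of the 3 ratios separated the genotypes.

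**Figure D4:**
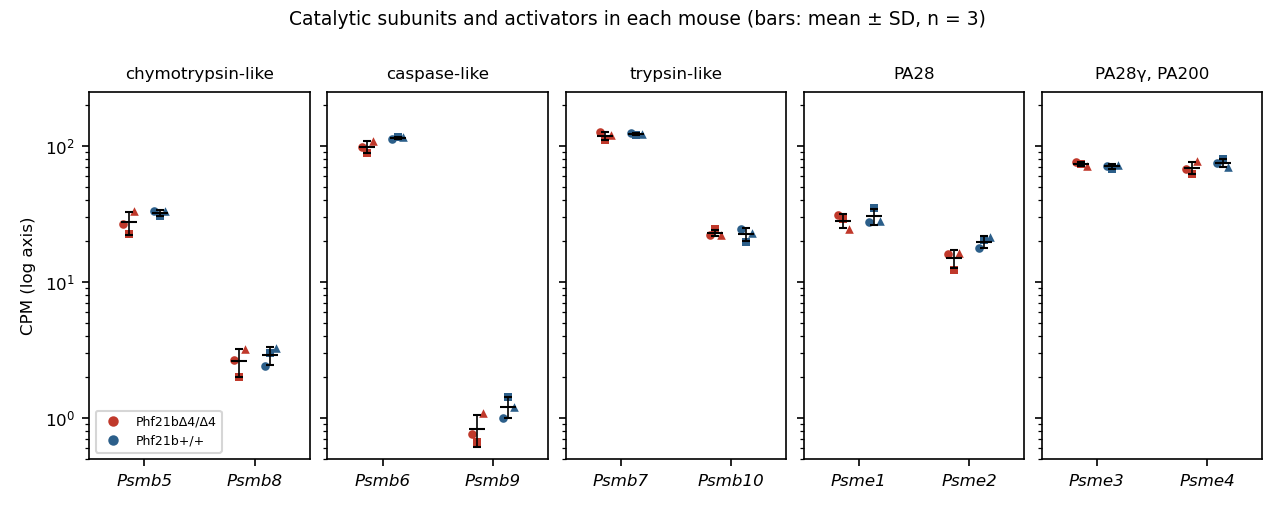
CPM of the 3 pairs of constitutive and inducible catalytic subunits and of the activators in each mouse on a log axis, with Phf21bΔ4/Δ4 in red, Phf21b+/+ in blue, and bars for the mean ± SD (n = 3). *Psmb9*, *Psmb8*, and *Psmb10* lie well below *Psmb6*, *Psmb5*, and *Psmb7*, and among the genes shown only *Psmb6* and *Psme2* separate the genotypes.

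Activators bind the ends of the 20S core in place of the 19S cap. *Psme1* and *Psme2* encode the alternating subunits of PA28, which interferon induces, *Psme3* encodes nuclear PA28γ, *Psme4* encodes PA200, and *Psmf1* encodes the inhibitor PI31. *Psme2* (chr14:55587441-55591113) had 16.2, 12.3, and 16.4 CPM in Phf21bΔ4/Δ4 and 17.6, 20.3, and 21.5 CPM in Phf21b+/+. It did not overlap and was 24.8% lower (log2 fold change -0.41, SE 0.15, limma FDR 0.17). Its partner *Psme1* overlapped, with 31.1, 28.9, and 24.7 CPM against 27.8, 34.9, and 28.3 CPM. *Psme3*, *Psme4*, and *Psmf1* overlapped as well, and *Psme4* had a log2 fold change of -0.12 (SE 0.10).

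Because *Psmb8*, *Psmb9*, *Psmb10*, *Psme1*, and *Psme2* are interferon-responsive, a list of interferon response and antigen presentation genes was set beside them. All 13 listed genes of that list had log2 fold changes below 0, with a median of -0.51. The genotypes did not overlap in 6 of them (*H2-K1*, *H2-D1*, *Tap2*, *Tapbp*, *Irf1*, and *Gbp2*; 46.2%, against 16.0% of all genes). At an unadjusted p under 0.05, 5 were lower (38.5%, against 12% of all genes), and 0 passed the threshold. The summed level of the list was 156, 129, and 199 CPM in Phf21bΔ4/Δ4 replicates 2, 3, and 6 and 202, 239, and 199.6 CPM in Phf21b+/+ replicates 5, 7, and 8. Phf21bΔ4/Δ4 replicate 3, the mouse with the lowest sum, was also the lowest in *Psmb8*, *Psmb9*, and *Psme2*, but not in *Psmb10*, where it was the highest of the 3 mutant mice, or in *Psme1*. Microglial markers summed to 342 to 382 CPM in Phf21bΔ4/Δ4 and to 336 to 372 CPM in Phf21b+/+.

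The ATPase ring of the 19S cap unfolds substrates and opens the gate of the core, and its values on the deposited log2 CPM lay near 0. The 6 genes *Psmc1* to *Psmc6* had a median log2 fold change of -0.038, and all 6 intervals lay within a 1.3-fold change. This median depended on the scaling. It was 0.012 with each mouse centred on its median and -0.17, with all 6 genes below 0, under quantile normalization. *Psmc6*, with 112, 110, and 121 CPM in Phf21bΔ4/Δ4 and 129, 129, and 127 CPM in Phf21b+/+, was the only one of the 6 without overlap. It was 10.9% lower (log2 fold change -0.17, SE 0.07, limma FDR 0.21). *Psmc4* had 91.8, 92.3, and 102 CPM against 102, 103, and 101 CPM (log2 fold change -0.10, SE 0.07), which overlapped through Phf21bΔ4/Δ4 replicate 6. Summed over the ring, the level was 765, 725, and 802 CPM against 804, 794, and 777 CPM, and the genotypes overlapped.

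Non-ATPase subunits form the base scaffold and the lid of the 19S cap, and here values lay on both sides of 0. Of the 11 genes, 6 had log2 fold changes above 0 and 5 below, with a median of 0.07 that turned to -0.001 under quantile normalization. *Psmd2* (chr16:20651652-20663414), a large scaffold subunit of the base, had 297, 273, and 266 CPM in Phf21bΔ4/Δ4 and 249, 244, and 228 CPM in Phf21b+/+. Every mutant value exceeded every control, by 15.9% on average (log2 fold change 0.21, SE 0.08, limma FDR 0.19). *Psmd3*, a lid subunit, had 87.8, 87.4, and 83.4 CPM against 79.1, 75.2, and 74.0 CPM (log2 fold change 0.18, SE 0.07, limma FDR 0.18). It was higher in all 3 mutant mice.

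*Psmd1*, the other large scaffold subunit, had 180, 165, and 168 CPM against 163, 151, and 149 CPM, a difference of 10.6% (log2 fold change 0.15, SE 0.07, limma FDR 0.27). *Psmd7*, the partner of the deubiquitinase *Psmd14* in the lid, had 68.8, 75.8, and 69.6 CPM against 64.1, 65.5, and 62.8 CPM (log2 fold change 0.15, SE 0.07, limma FDR 0.24). Neither overlapped. The highest value of the group was that of *Psmd11*, at 36.4, 43.0, and 27.4 CPM against 29.2, 24.01, and 31.4 CPM (log2 fold change 0.32, SE 0.18, limma FDR 0.31). Phf21bΔ4/Δ4 replicates 2 and 3 were above all controls for this gene, while replicate 6 lay among them. *Psmd4*, a receptor for ubiquitin chains, was the only gene of the group that was lower without overlap, with 110, 107, and 118.2 CPM against 121, 118.2, and 118.4 CPM (log2 fold change -0.09, SE 0.07, limma FDR 0.42). The highest mutant and the lowest control differed by less than the rounding shown. *Psmd14* itself overlapped, with 102, 103, and 120 CPM against 118, 115, and 119 CPM. Summed over the 11 genes, the level was 1248, 1178, and 1194 CPM in Phf21bΔ4/Δ4 and 1169, 1146, and 1134 CPM in Phf21b+/+, and the lowest mutant sum exceeded the highest control sum. The most abundant genes weigh most in this sum. They were *Psmd2* (mean 279 CPM in Phf21bΔ4/Δ4 and 240 CPM in Phf21b+/+) and *Psmd1* (171 and 154 CPM). The sum does not show a joint rise of the group, as 5 of the 11 genes had log2 fold changes below 0.

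Among the assembly factors, the 20S chaperones *Psmg1* to *Psmg4* (PAC1 to PAC4) all had values below 0, from -0.36 to -0.13, with a median of -0.21 that was -0.11 with the length trend removed and -0.03, with 3 of the 4 below 0, under quantile normalization. *Psmg4* had 4.93, 5.91, and 6.26 CPM in Phf21bΔ4/Δ4 and 7.92, 7.17, and 6.74 CPM in Phf21b+/+, without overlap (log2 fold change -0.36, SE 0.15, limma FDR 0.21). *Psmg3*, which pairs with *Psmg4*, had 4.09, 4.62, and 4.57 CPM against 5.60, 5.23, and 4.94 CPM (log2 fold change -0.25, SE 0.14, limma FDR 0.31), and its value was 0.00033 under quantile normalization. *Psmg1*, with 9.41, 10.1, and 9.26 CPM against 10.2, 11.99, and 10.6 CPM, did not overlap by a narrow margin (log2 fold change -0.18, SE 0.12, limma FDR 0.36). Its partner *Psmg2* overlapped (log2 fold change -0.13, SE 0.10). Unlike in the core, Phf21bΔ4/Δ4 replicate 3 did not stand apart here: the summed level of the 4 genes was 33.2, 34.2, and 34.3 CPM against 38.9, 41.0, and 37.0 CPM. The 19S chaperones *Psmd5*, *Psmd9*, and *Psmd10* all overlapped, with log2 fold changes between -0.14 and -0.03.

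*Psmc3ip*, the gene that is not part of the proteasome, had 2.36, 2.14, and 3.04 CPM in Phf21bΔ4/Δ4 and 3.65, 4.05, and 4.18 CPM in Phf21b+/+. The genotypes did not overlap, and it had the lowest log2 fold change of the 47 genes (-0.67, SE 0.20). Its exons share 385 bp with *Mlx* on the opposite strand.

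Proteasome transcripts are short, so their values were set beside transcript length. The median longest coding transcript was 1440 bp for the 47 genes and 3312 bp for all coding genes. Among the 47 genes, log2 fold change and transcript length were related with Spearman's rho = 0.52 (n = 47) and over all coding genes with rho = 0.27 (n = 13519), both across genes, which are not independent replicates. Of the 35 proteasome-named genes with a transcript under 2000 bp, 30 had a value below 0 (median -0.12), as had 2147 of the 2967 coding genes of this length (median -0.13). For the 12 longer ones the median was -0.03, beside 0.03 for the 10552 longer coding genes. The length trend removed in the alternative fit was that with exonic length, merged over all transcripts of a gene (median 2808 bp for the 47 genes and 4540 bp for all genes). With that trend of all genes removed, 9 of the 47 genes were lower without overlap in place of 15. At an unadjusted p under 0.05, 2 in place of 6 were lower. The shares of all genes in this setting were 15.2% and 11.6%. Log2 fold change and coding transcript length then still had rho = 0.18 among the 47 genes. The 4 genes that were higher without overlap, *Psmd1*, *Psmd2*, *Psmd3*, and *Psmd7*, include 3 with transcripts over 2000 bp.

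**Figure D5:**
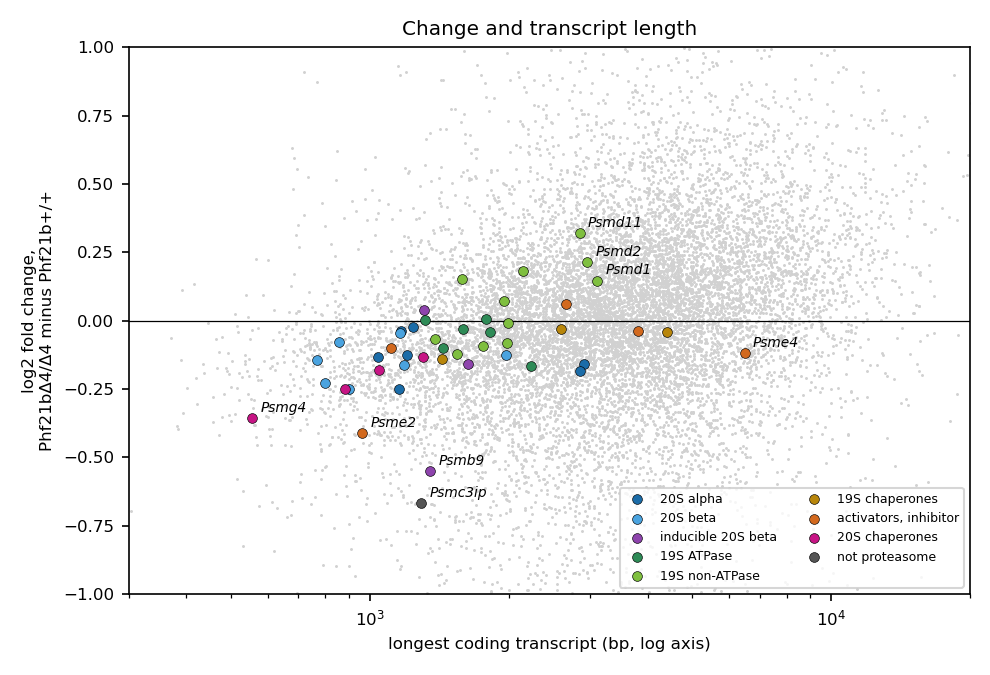
Log2 fold change (Phf21bΔ4/Δ4 minus Phf21b+/+) against the length of the longest coding transcript on a log axis, with the 47 genes colored by role over all coding genes in gray; gray points beyond the axes are not drawn. The short 20S subunits and chaperones lie below 0, where the gray points of the same length also have a median below 0 (-0.13 under 2000 bp).

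Other abundant complexes served as a comparison. The 78 cytosolic ribosomal protein genes, also short, had a median log2 fold change of -0.31, and 71 of them (91.0%) were lower without overlap, while 1 passed the threshold. The 90 nuclear-encoded respiratory chain genes had a median of -0.09, and 30 (33.3%) were lower without overlap and 3 (3.33%) higher. The proteasome-named genes, at -0.10 with 31.9% and 8.51%, thus had values near those of the respiratory chain genes and smaller differences than the ribosomal protein genes. These are counts and medians, and the lists were not tested against each other.

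Genes that work with the proteasome under other names were read in the same way. Of 41 named genes, 35 were listed, and 0 passed the threshold. At an unadjusted p under 0.05, 2 of the 35 (5.71%) were lower and 5 (14.3%) higher in Phf21bΔ4/Δ4, against 12% and 11.6% of all genes. Without overlap, 3 (8.57%) were lower and 12 (34.3%) higher, against 16.0% and 15.0% of all genes. *Usp14*, which trims ubiquitin chains on the cap, had 237, 207, and 178 CPM in Phf21bΔ4/Δ4 and 173, 156, and 161 CPM in Phf21b+/+ (log2 fold change 0.34, SE 0.12, limma FDR 0.17). *Uchl5*, the other deubiquitinase that binds the cap, had 32.1, 36.6, and 30.8 CPM against 27.0, 28.1, and 26.2 CPM (log2 fold change 0.29, SE 0.09, limma FDR 0.16). All mutant values of both genes were above all control values. The ubiquitin-activating enzyme *Uba1* (log2 fold change 0.30, SE 0.10) and the unfoldase *Vcp* (0.27, SE 0.09) were also higher without overlap, with limma FDR of 0.17 each. *Ubqln2*, a shuttle factor, was the fifth at an unadjusted p under 0.05 and overlapped between the genotypes.

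*Rps27a*, which encodes ubiquitin fused to a ribosomal protein, had 93.2, 92.5, and 107 CPM against 114, 113, and 125 CPM and was lower without overlap (log2 fold change -0.27, SE 0.09, limma FDR 0.16). *Nfe2l1*, the gene of NRF1, had 318, 340, and 271 CPM against 275, 287, and 265 CPM, which overlapped (log2 fold change 0.16, SE 0.10, limma FDR 0.35). Its relative *Nfe2l2* had 15.4, 12.7, and 14.9 CPM against 16.2, 27.0, and 19.1 CPM and was lower without overlap (log2 fold change -0.51, SE 0.20, limma FDR 0.19), with the highest control in Phf21b+/+ replicate 7, the mouse with the highest choroid plexus markers. The core maturation factor *Pomp* (log2 fold change -0.11, SE 0.07) and the small cap subunit *Sem1* (-0.11, SE 0.08) had values like those of the core. The ubiquitin receptor *Adrm1* had 23.1, 24.1, and 24.2 CPM against 25.0, 23.8, and 24.4 CPM, and overlapped. Per kb in Phf21b+/+ mice, the highest levels of these lists were those of the polyubiquitin gene *Ubb* (192 CPM per kb), *Ubqln1* (63.6), *Nfe2l1* (59.2), *Akirin2* (37.1), and *Usp14* (34.5). *Ubb* lay above *Psmb6* in this measure, and *Rps27a* (148 ± 8.49 CPM per kb) did not differ from *Psmb6* beyond the spread of the mice.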

How the data were processed

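RNA-Seq of 6 hippocampi, 3 per genotype, was analysed from the log2 CPM values that the authors deposited, with 1 column per mouse. According to the study's methods and processing notes, the authors used Trimmomatic 0.39 for trimming, STAR 2.7.3a for alignment to GRCm38, featureCounts of Subread 1.6.4 for counting over GENCODE genes, and edgeR for scaling to the effective library size. Genes were listed if they reached 1 CPM in 2 or more samples. The prior count and the strand setting are not given in the sources used here. Steps between low values gave whole reads for 100% of values within a tolerance of 0.1, and these reads gave the depth and the CPM.

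Genotypes were compared over all 14477 genes with limma 3.58.1 in R 4.3.3 (lmFit, and eBayes with trend; Benjamini-Hochberg adjustment), with no covariate and no further filter. Ratios of subunits were tested with exact permutation tests. Means ± SD are over the 3 mice of a genotype. Lengths, positions, and exon overlaps came from GENCODE M21, another release than that of the authors, in which all 47 genes were found, and promoters from RefSeq (GRCm38.p6). Python 3.11.15 with pandas 2.3.3, NumPy 2.4.6, and matplotlib 3.10.9 made the tables and the figures.

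The genes, their groups, and the other lists were chosen with earlier results of these data known, so no list was tested. Named with full values were the genes with the lowest p, the largest differences, and the highest and lowest levels, each subunit with a tissue-restricted copy, and, of the pathway lists, genes without overlap at an unadjusted p under 0.05, the highest level of each list, and *Nfe2l1*, *Pomp*, *Usp14*, *Adrm1*, and *Sem1*. Other members were named where the genotypes did not overlap. The test was checked on simulated data. The alternatives were another prior variance, robust empirical Bayes, arrayWeights, and pseudocounts of 1 and 0.1 added to CPM. A trend with exonic length, merged over all transcripts of a gene, or with GC content was also removed. Further alternatives were a filter at a mean log2 CPM of 1, centring on the median, quantile normalization, voom on the recovered reads, and leaving out each mouse in turn.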

Additional observations from a re-analysis of the deposited data

How the results depend on the processing

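No paired analysis was possible because the genotypes share no replicate numbers. Proteasome-named genes past the threshold numbered 0 under each alternative except arrayWeights (3: *Psmc3ip*, *Psme2*, and *Psmg4*, with 24.5% of all genes past it) and the removal of single mice, where the count ranged from 0 to 4. Genes lower at an unadjusted p under 0.05, 6 as reported, numbered 11 with arrayWeights (22.8% of all genes), 2 with each mouse centred (9.12%), 2 with the length trend removed (11.6%), and 1 to 8 without single mice (6.47% to 16.5%). Genes higher at that p, 2 as reported, numbered 5 with arrayWeights (21.3% of all genes), 0 with quantile normalization (11.2%), 0 with the same prior variance for all genes (9.97%), and 0 to 3 without single mice (6.22% to 17.6%). Lower genes without overlap, 15 as reported, numbered 9 with each mouse centred (11.7% of all genes), 9 with the length trend removed (15.2%), 19 with quantile normalization (12.4%), and 15 to 21 without single mice (18.8% to 28.5%). Higher genes without overlap, 4 as reported, numbered 2 with quantile normalization (15.4% of all genes), 7 with each mouse centred (19.1%), and 4 to 6 without single mice (17.6% to 26.8%). The median log2 fold change, -0.10 as reported, was -0.06 with arrayWeights, -0.05 with each mouse centred, and -0.05 with the length trend removed. It was -0.13 with quantile normalization and -0.13 to -0.04 without single mice. Centring each mouse shifted the median of all genes from -0.02 to 0.03, and quantile normalization shifted it to 0.019. The *Psmb8* to *Psmb5* log2 ratio difference, 0.09 as reported, was -0.041 with the length trend removed and -0.057 to 0.17 without single mice, and that of *Psmb10* to *Psmb7*, 0.08 as reported, was -0.014 to 0.15. That of *Psmb9* to *Psmb6*, -0.32 as reported, was -0.05 with log2(CPM + 1) and -0.45 to -0.20 without single mice. Of the 47 genes, 12 changed sign without Phf21bΔ4/Δ4 replicate 3, 9 with each mouse centred, 8 with the length trend removed, 7 with quantile normalization, and 6 with arrayWeights. Among genes with a fold change given in the text, pathway genes included, these settings changed the sign of *Psma6*, to 0.0065 with the length trend removed, *Psmb8* to 0.16 and *Psmg3* to 0.00033 and *Nfe2l1* to -0.032 with quantile normalization, and *Psmb10* to -0.016 with arrayWeights. Without single mice, *Psmb8* ranged from -0.32 to 0.024 and *Psmb10* from -0.048 to 0.10. The causes were not tested. Depth limits *Psmb9*, with as few as 14 reads in a mouse, more than the core genes.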
